A study of Mus musculus with 24 samples.

Results

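The genes described here are the collagens, defined as every gene on the array whose single annotated symbol is Col, a number, the letter a and a number. There were 44 of them among 19938 genes with 1 symbol, read by 46 probe sets, and where a gene had more than 1 probe set the brightest over all arrays was used. Collagens are secreted proteins of 3 chains wound into a triple helix, and they build most of the extracellular matrix that wraps muscle fibres, bundles and whole muscles. Fibrillar collagens form the load-bearing fibrils, FACIT collagens (fibril-associated collagens with interrupted triple helices) sit on the fibril surface, and network collagens build the basement membrane and other sheets. In muscle most of this matrix is made by fibroblasts and fibro-adipogenic progenitors, the mesenchymal cells between the fibres, while the fibre itself is bound to its basement membrane through laminin and type IV collagen. The 44 genes fell into 11 fibrillar, 6 basement membrane (type IV), 6 microfibrillar (type VI), 9 FACIT, 2 multiplexin, 4 transmembrane and 3 short-chain network genes, with 3 others (Col7a1, Col26a1, Col28a1).

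Total RNA came from quadriceps and soleus of male mice aged 40 to 42 days whose background was mixed from C57BL/6J and 1219S6/SvEvTac. All mice, controls included, had the conditional allele of nebulin (Neb) in homozygous form. Conditional knockout (cKO) mice were also hemizygous for MCK-Cre, a Cre recombinase under the muscle creatine kinase promoter, which is active in muscle fibres, and control mice had no MCK-Cre. Nebulin is a very large protein of the sarcomere that runs beside the actin filaments. The 4 groups were quadriceps cKO, quadriceps control, soleus cKO and soleus control with 6 arrays each, called biological replicates by the submitters, who describe the quadriceps but not the soleus as markedly smaller in the cKO. The promoter limits Cre to muscle cells, while whole-muscle RNA also holds that of the interstitial cells. In such bulk RNA fewer cells of a type and less RNA per cell cannot be told apart.

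The values are normalized probe set intensities, given on the log2 scale, so that a difference of 1 means doubled signal. Neb itself averaged 10.84 ± 0.23 in quadriceps cKO and 12.29 ± 0.17 in quadriceps control (SD, n = 6 each), a log2 change of -1.45 (limma, adjusted p = 1.40e-10). In soleus it averaged 11.24 ± 0.20 in cKO and 12.38 ± 0.21 in control, a change of -1.14 (adjusted p = 2.27e-08). Whether its probe set lies in the deleted part is not given in the sources used here. Muscle fibre markers such as Ckm, Acta1 and Ttn were bright in every group, with a summed linear intensity of 7 genes between 34242 and 41288 over the 24 arrays. All 44 collagens lay above the dim limit, the 30th percentile of an array's probe sets (3.51 to 3.72), on all 24 arrays, and 39 lay above the median of every array (4.74 to 4.94). The dim limit is not a detection call, and a level of 1 probe set is not set against that of another. The number of arrays limits the precision, with a median standard error of 0.10 for a change within a muscle and 0.14 for the difference between muscles. Some arrays stood apart across many collagens. Quadriceps cKO 3 was the highest of its group for 23 of the 44 genes and quadriceps cKO 4 the lowest for 19. Quadriceps control 3 was the highest of its group for 23 genes and quadriceps control 6 the lowest for 25. Soleus cKO 6 was the lowest of its group for 28 genes and soleus control 1 the highest for 21.

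In the quadriceps, loss of nebulin went with higher signal for 19 of the 44 collagens and lower signal for 1, Col4a3 (adjusted p under 0.05, limma, Benjamini-Hochberg over all 15999 genes tested). Over all genes tested 22.3% were called higher and 17.7% lower, 40.0% in all. The median change was 0.19 over the collagens, against -0.01 over all genes. In the soleus 9 collagens were higher and 2 lower, Col11a1 and Col4a3, where 13.2% of all genes were called higher and 9.94% lower (23.1% in all), and the median collagen change was -0.06, against -0.02 over all genes. Of the 19 genes higher in quadriceps and the 9 higher in soleus, 8 stood in both lists: Col3a1, Col5a1, Col5a2, Col6a3, Col8a1, Col12a1, Col14a1 and Col20a1. Another 11 were called higher in quadriceps and not in soleus, and 22 genes were called in neither muscle. In quadriceps 6 collagens had all 6 cKO arrays above all 6 control arrays and none had them all below, where such separation was seen in 10.1% of all genes upward and 6.06% downward. In soleus 5 were separated upward and 2 downward, where 7.82% and 4.96% of all genes were. Scaling mattered for the split: with arrays centred on their 75th percentile 14 collagens were higher and 8 lower in quadriceps, while the share of all called genes that were higher moved to 37.5%, against 55.7% as deposited. Without quadriceps control 6 alone the quadriceps counts were 17 higher and 9 lower, and without soleus cKO 6 the soleus counts were 12 higher and 1 lower.

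**Figure D1:**
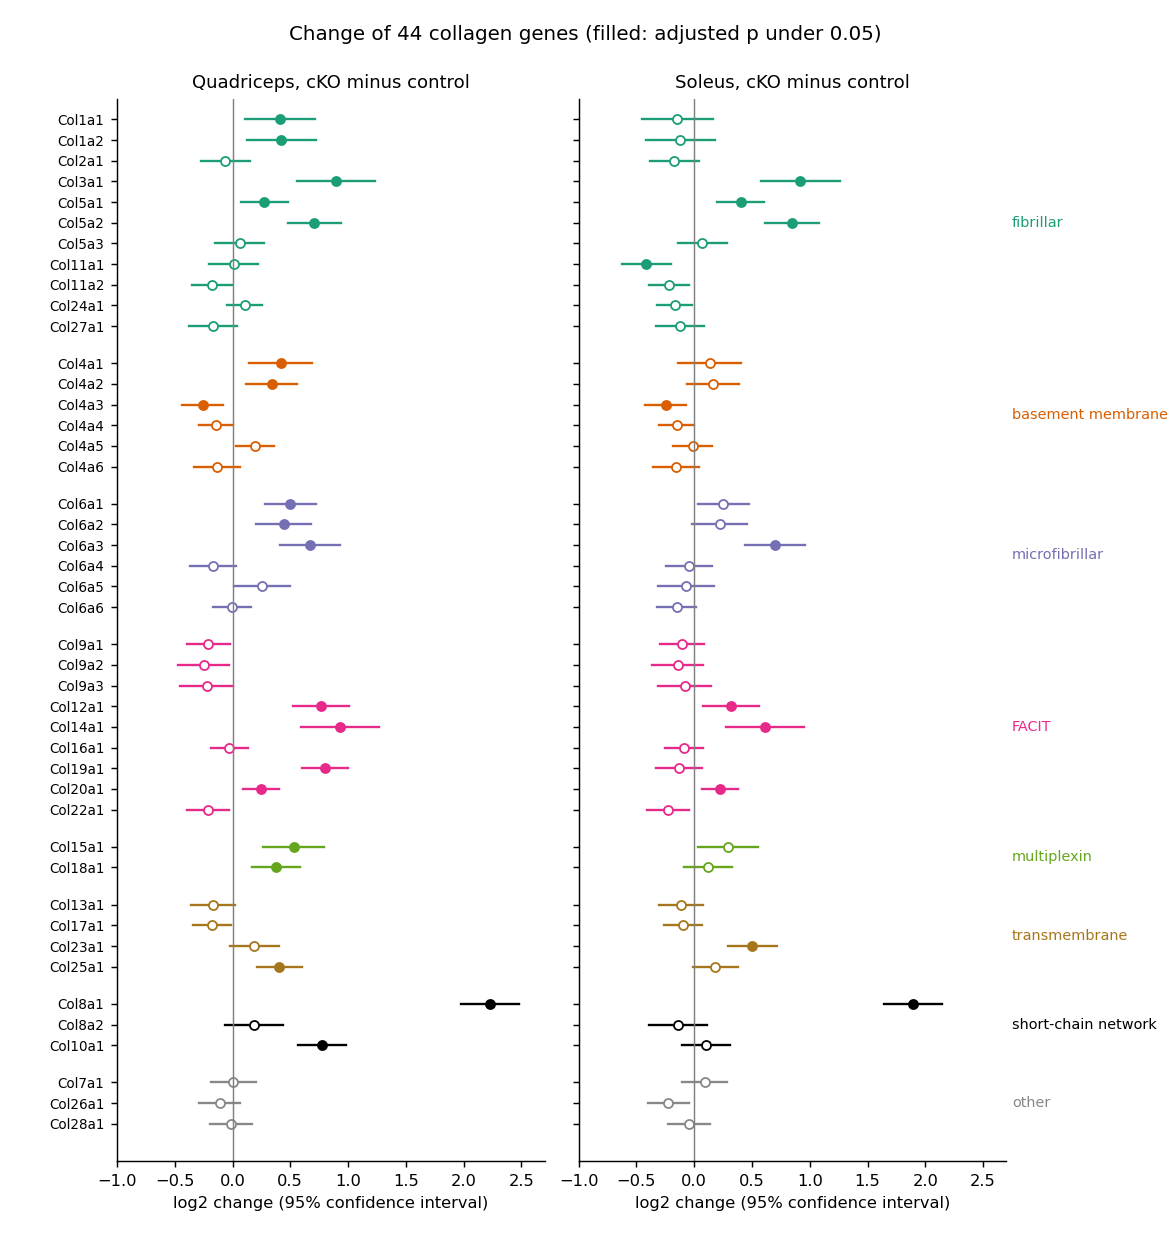
Log2 change (cKO minus control) of each of the 44 collagen genes with its 95% confidence interval, by class, in quadriceps (left) and soleus (right); filled points have an adjusted p under 0.05. Col8a1 stands furthest right in both panels at 2.23 and 1.90, and 22 genes lie between -0.25 and 0.25 in quadriceps with no call in either muscle.

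The promoter sequences of 4 collagens that the results below turn on are shown first: Col8a1, with the largest change of the 44 genes in both muscles, Col3a1, higher in both, Col1a2, higher in quadriceps, and Col10a1, whose change differed between the muscles. Each is the stretch of 250 bases that ends just before the transcript start in RefSeq (GRCm38.p6), written 5′ to 3′ on the gene's strand, and capitals mark matches on either strand to the 6 motifs searched.
Col8a1: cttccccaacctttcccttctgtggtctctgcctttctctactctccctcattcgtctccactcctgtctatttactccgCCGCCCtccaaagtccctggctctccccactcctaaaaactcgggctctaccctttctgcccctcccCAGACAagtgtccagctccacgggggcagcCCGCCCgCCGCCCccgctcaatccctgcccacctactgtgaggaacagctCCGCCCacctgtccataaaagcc
Col3a1: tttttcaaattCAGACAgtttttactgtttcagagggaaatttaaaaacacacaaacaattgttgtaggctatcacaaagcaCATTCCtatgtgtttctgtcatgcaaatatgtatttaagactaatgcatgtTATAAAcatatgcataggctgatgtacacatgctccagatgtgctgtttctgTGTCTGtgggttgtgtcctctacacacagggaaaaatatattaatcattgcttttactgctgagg
Col1a2: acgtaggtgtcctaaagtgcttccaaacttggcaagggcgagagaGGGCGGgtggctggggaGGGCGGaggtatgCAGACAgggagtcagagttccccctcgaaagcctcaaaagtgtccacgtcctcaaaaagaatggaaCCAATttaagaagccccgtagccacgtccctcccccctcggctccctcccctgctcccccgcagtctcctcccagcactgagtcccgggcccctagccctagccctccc
Col10a1: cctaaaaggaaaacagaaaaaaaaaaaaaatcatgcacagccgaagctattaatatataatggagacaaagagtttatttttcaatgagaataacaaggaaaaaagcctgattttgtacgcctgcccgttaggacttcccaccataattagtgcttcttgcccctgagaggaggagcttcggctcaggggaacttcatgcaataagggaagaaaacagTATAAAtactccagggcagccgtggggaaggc
They lie at chr16:57754738-57754987 (minus strand), chr1:45311288-45311537 (plus), chr6:4505368-4505617 (plus) and chr10:34389731-34389980 (plus), each directly upstream of the annotated gene. The Col10a1 stretch also falls within the annotated span of another gene, Nt5dc1. The motifs were CCAAT (the NF-Y site), TATAAA (the TATA box), GGGCGG (the GC box of Sp1), TGANTCA (an AP-1 element), CATTCC (the M-CAT element of TEAD factors) and CAGACA (a Smad-binding element). Col8a1 held GGGCGG 4 times on the opposite strand, first bases 170, 73, 66 and 23 bases before the start, and CAGACA at 103. Col3a1 held CAGACA at 239 and, on the opposite strand, at 65, CATTCC at 168 and TATAAA at 117. Col1a2 held GGGCGG at 205 and 188, CAGACA at 175 and CCAAT at 109, while Col10a1 held TATAAA at 32. Such windows were at hand for 35 of the 44 collagens (38 windows), and GGGCGG stood in those of 21 genes, CCAAT in 13, CAGACA in 9, TATAAA in 5, CATTCC in 4 and TGANTCA in 1. Among 32851 windows of all genes the shares were 32.7%, 33.8%, 17.1%, 12.4%, 12.6% and 6.7% in the same order, and the median GC content was 59.0% in the collagen windows and 52.4% in all. The collagen counts are of genes with a match in any of their windows, and some genes have more than 1. The shares are of single windows, so the units differ. A match is a string of letters and not a shown binding site.

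Col8a1, a short-chain collagen of vascular and subendothelial sheets, changed most. Its log2 intensity was 8.32, 8.56 and 8.72 in quadriceps cKO (lowest, median and highest of 6 arrays), against 6.20, 6.31 and 6.55 in quadriceps control. In soleus it was 8.45, 9.03 and 9.35 in cKO, against 6.72, 7.05 and 7.28 in control. In both muscles every cKO array lay above every control array. The changes were 2.23 in quadriceps (SE 0.12, 4.68-fold, adjusted p = 1.82e-13) and 1.90 in soleus (SE 0.12, 3.72-fold, adjusted p = 1.66e-11). The difference between them, 0.33 (95% interval -0.03 to 0.68), was not called (adjusted p = 0.227). Its partner Col8a2, which encodes the other type VIII chain, averaged 5.82 in quadriceps cKO and 5.64 in quadriceps control, and 5.96 in soleus cKO and 6.10 in soleus control. Neither change passed the test, with intervals of -0.06 to 0.43 and -0.39 to 0.11. The third short-chain gene, Col10a1, known from the growth plate where it marks hypertrophic chondrocytes, was called in quadriceps and is described with the differences between the muscles.

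**Figure D2:**
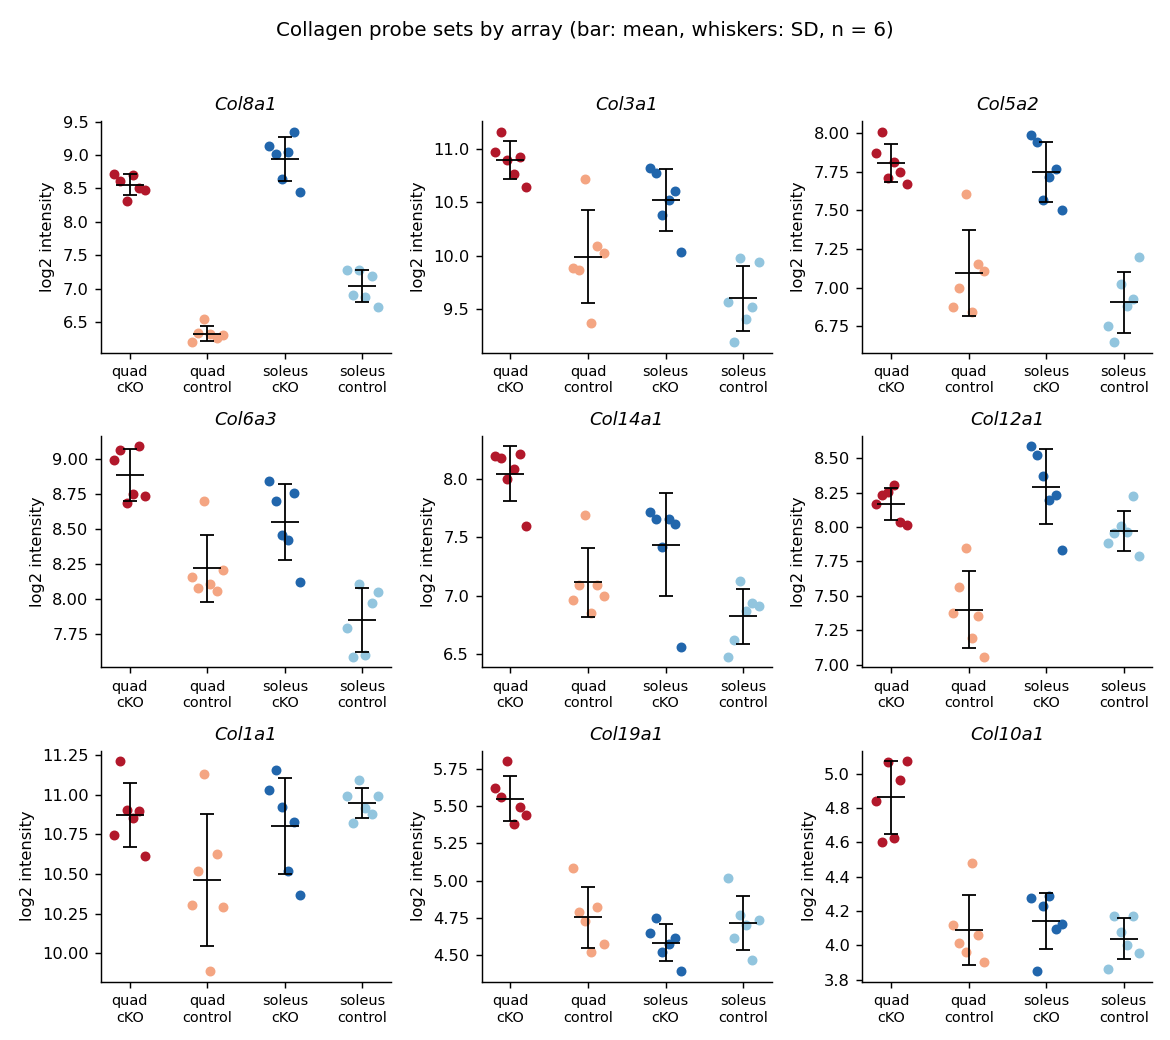
Log2 intensity of 9 collagen probe sets on each array in quadriceps cKO, quadriceps control, soleus cKO and soleus control; the bar is the mean and the whiskers the SD of 6 arrays, and each panel has its own axis. Col8a1 separates cKO from control in both muscles, Col19a1 and Col10a1 only the quadriceps cKO arrays from all others, and in Col1a1 the quadriceps groups overlap.

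The fibrillar class had 5 of 11 genes higher and none lower in quadriceps, and 3 higher and 1 lower in soleus. Over all genes tested 22.3% were called higher and 17.7% lower in quadriceps, and 13.2% and 9.94% in soleus. The counts of the other classes below stand beside the same shares. Col3a1, the type III chain of reticular fibrils, was 10.64, 10.91 and 11.16 in quadriceps cKO (lowest, median, highest), against 9.37, 9.96 and 10.72 in quadriceps control. In soleus it was 10.03, 10.56 and 10.82 in cKO, against 9.19, 9.55 and 9.98 in control. The soleus groups did not overlap, and in quadriceps 5 of 6 cKO arrays lay above every control array. The changes were 0.90 (SE 0.17, adjusted p = 1.01e-04) and 0.92 (SE 0.17, adjusted p = 1.31e-04). Col5a2, a type V chain that is built into type I fibrils, was called in both muscles too. It was 7.67, 7.78 and 8.01 in quadriceps cKO, against 6.84, 7.05 and 7.61 in quadriceps control. In soleus cKO it was 7.51, 7.74 and 7.99, against 6.65, 6.90 and 7.20 in soleus control. Neither muscle showed an overlap, and the changes were 0.71 (SE 0.11, adjusted p = 1.67e-05) and 0.84 (SE 0.11, adjusted p = 2.69e-06). Col3a1 and Col5a2 are neighbours on chromosome 1, 24624 bases apart in GRCm38.p6. The other type V chains differed from each other in call: Col5a1 changed by 0.27 (SE 0.10, adjusted p = 0.0279) and 0.40 (SE 0.10, adjusted p = 0.00324), while Col5a3 at 0.06 and 0.07 was not called in either muscle.

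Type I collagen, the main fibril protein of muscle connective tissue, was called in quadriceps and not in soleus. Col1a1 averaged 10.87 ± 0.20 in quadriceps cKO and 10.46 ± 0.41 in quadriceps control (SD, n = 6), a change of 0.41 (95% interval 0.11 to 0.71, adjusted p = 0.0290). Col1a2, which encodes the other chain of the same heterotrimer, averaged 11.06 ± 0.18 and 10.64 ± 0.42 there, a change of 0.42 (0.12 to 0.72, adjusted p = 0.0228). In both genes 1 of the 6 cKO arrays lay above every control array, and the control arrays spread over more than 1 log2 unit. In soleus Col1a1 averaged 10.80 ± 0.30 in cKO and 10.95 ± 0.10 in control (change -0.15, interval -0.45 to 0.16), and Col1a2 10.85 ± 0.29 and 10.98 ± 0.08 (change -0.12, interval -0.42 to 0.18), with no call. Of 39 alternatives the quadriceps call was lost in 8 for Col1a1, 6 for Col1a2 and 9 for Col5a1. The smallest changes came without the 3 arrays of lowest limma array weight (quadriceps controls 4 and 6 and soleus control 1), at 0.22, 0.21 and 0.15 (adjusted p = 0.221, 0.226 and 0.2098), and with array weights, at 0.25, 0.24 and 0.19 (adjusted p = 0.166, 0.143 and 0.102). With each muscle fitted alone the changes were as before but not called (adjusted p = 0.0579, 0.0517 and 0.0614). Without quadriceps control 4 their changes were 0.30, 0.30 and 0.23 (adjusted p = 0.0960, 0.0774 and 0.0684), and without quadriceps cKO 2 they were 0.34, 0.37 and 0.25 (adjusted p = 0.0797, 0.0580 and 0.0586). Without quadriceps control 1 Col1a1 gave 0.38 (adjusted p = 0.0587) and Col5a1 0.26 (adjusted p = 0.0556), and without quadriceps control 6 they gave 0.38 and 0.22 (adjusted p = 0.0518 and 0.0690). Centred on the 75th percentile the 3 genes gave 0.33, 0.34 and 0.19 (adjusted p = 0.0703, 0.0586 and 0.113), and quantile normalization gave 0.19 for Col5a1 (adjusted p = 0.120). Col11a1, a chain of the type XI collagen that nucleates fibrils in cartilage and tendon, was the fibrillar gene that fell, in soleus. It averaged 6.71 ± 0.25 in soleus cKO and 7.13 ± 0.08 in soleus control, with every cKO array below every control array (change -0.42, SE 0.10, adjusted p = 0.00354). In quadriceps it averaged 6.52 ± 0.15 in cKO and 6.51 ± 0.20 in control, a change of 0.01 with an interval of -0.20 to 0.22. The remaining fibrillar genes Col2a1, Col11a2, Col24a1 and Col27a1 lay between -0.18 and 0.11 in quadriceps and between -0.22 and -0.12 in soleus, with no call. Col11a2 was called lower in 6 of 39 alternatives in quadriceps and 9 in soleus (-0.26 to -0.18, adjusted p = 0.00804 to 0.0467).

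Type VI collagen forms beaded microfibrils close to the fibre's basement membrane and is made chiefly by interstitial fibroblasts. Its 3 classical chains were all higher in quadriceps. Col6a3 was 8.68, 8.87 and 9.09 in quadriceps cKO (lowest, median, highest), against 8.05, 8.13 and 8.70 in quadriceps control, and in soleus 8.12, 8.58 and 8.84 in cKO, against 7.59, 7.88 and 8.10 in control. The soleus groups were apart, and in quadriceps 5 cKO arrays lay above all controls. Its changes were 0.67 (SE 0.13, adjusted p = 1.32e-04) and 0.70 (SE 0.13, adjusted p = 1.32e-04). Col6a1 averaged 8.99 ± 0.09 in quadriceps cKO and 8.49 ± 0.30 in quadriceps control (change 0.50, adjusted p = 6.21e-04), and Col6a2 8.75 ± 0.09 and 8.31 ± 0.31 (change 0.44, adjusted p = 0.00389). In soleus the differences for these 2 chains were 0.25 (interval 0.03 to 0.48, adjusted p = 0.0940) and 0.22 (interval -0.02 to 0.46, adjusted p = 0.189), without a call. Without soleus cKO 6 both were called there, at 0.32 (adjusted p = 0.0303) and 0.31 (adjusted p = 0.0442), and with array weights at 0.28 (adjusted p = 0.01996) and 0.26 (adjusted p = 0.0447). Col6a1 was also called, at 0.25, without quadriceps control 3, with each muscle fitted alone and with the replicate number as a fixed block (adjusted p = 0.0458, 0.0499 and 0.0449). Col6a4, Col6a5 and Col6a6, which encode the additional chains of this type, were not called in either muscle. Col6a5 and Col6a6 have a second, dimmer probe set each. For Col6a5 the brighter one differed by 0.25 in quadriceps with no call, whereas the dimmer one averaged 4.92 in quadriceps cKO and 3.89 in quadriceps control (change 1.02, SE 0.21, adjusted p = 3.92e-04), so the 2 probe sets disagree. The dimmer one changed by 0.12 in soleus with no call, and the difference between the muscles was called (0.90, SE 0.30, limma adjusted p = 0.0483). Its soleus means, 3.66 in cKO and 3.54 in control, lay at the dim limit (3.51 to 3.72). For Col6a6 they gave 0.00 and 0.30 in quadriceps (adjusted p = 0.0601 for the dimmer).

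Among the 9 FACIT genes 4 were higher in quadriceps and 3 in soleus, with none lower. Of all genes 22.3% and 13.2% were called higher there. Col14a1, which binds the surface of type I fibrils in tendon and muscle, was 7.60, 8.13 and 8.21 in quadriceps cKO (lowest, median, highest), against 6.85, 7.04 and 7.69 in quadriceps control. In soleus it was 6.56, 7.63 and 7.72 in cKO, against 6.48, 6.89 and 7.13 in control. In each muscle 5 of 6 cKO arrays exceeded all controls, and soleus cKO 6 was the low one. The changes were 0.93 (SE 0.16, adjusted p = 5.73e-05) and 0.61 (SE 0.16, adjusted p = 0.00654). Col12a1, a related fibril linker whose loss causes a myopathy in humans and mice, was 8.01, 8.20 and 8.30 in quadriceps cKO, against 7.06, 7.37 and 7.85 in quadriceps control, with no overlap (change 0.77, SE 0.12, adjusted p = 9.92e-06). In soleus it was 7.83, 8.30 and 8.59 in cKO, against 7.79, 7.96 and 8.22 in control. The soleus groups overlapped, and the change of 0.32 (SE 0.12, adjusted p = 0.0498) was lost in 22 of 39 alternatives, with changes of 0.26 to 0.41 and adjusted p of 0.00798 to 0.130 over them. Among single arrays left out it held only for soleus cKO 6, soleus control 5 and quadriceps controls 3, 4 and 6. Col20a1 changed by 0.25 (SE 0.08, adjusted p = 0.0104) and 0.22 (SE 0.08, adjusted p = 0.0312), averaging 5.65 in quadriceps cKO and 5.40 in quadriceps control, and 5.79 in soleus cKO and 5.57 in soleus control. Its soleus call was lost without soleus cKO 1 (0.18, adjusted p = 0.0960), soleus cKO 4 (0.21, adjusted p = 0.0696) or any of soleus controls 2, 4, 5 and 6 (0.21 to 0.22, adjusted p = 0.0541 to 0.0720), and with 75th-percentile centring in both muscles (0.17 and 0.19, adjusted p = 0.102 and 0.105). Quantile normalization ended its quadriceps call alone (0.18, adjusted p = 0.0561). The 3 chains of type IX collagen, a cartilage FACIT, were not called with the data as deposited. Their changes were -0.21 for Col9a1, -0.25 for Col9a2 and -0.23 for Col9a3 in quadriceps, and -0.11, -0.14 and -0.08 in soleus. In quadriceps they were called lower in 6, 6 and 5 of 39 alternatives. Centring on the 75th percentile gave -0.29, -0.33 and -0.31 (adjusted p = 0.0256, 0.0299 and 0.0479), and leaving out quadriceps control 6 gave -0.30, -0.32 and -0.30 (adjusted p = 0.00268, 0.01397 and 0.0225). Without the 3 arrays of lowest weight all 3 were called as well. Median centring and quantile normalization called Col9a1 and Col9a2, array weights Col9a1 and Col9a3, and leaving out quadriceps cKO 3 Col9a2 and Col9a3. Col16a1 and Col22a1, the last a collagen of the myotendinous junction, were not called either. Col22a1 was called lower in 12 of 39 alternatives in quadriceps and 10 in soleus (-0.32 to -0.21, adjusted p = 0.00399 to 0.0499).

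The basement membrane class split by chain. Col4a1 and Col4a2, whose products form the network found in every basement membrane, averaged 8.67 and 8.31 in quadriceps cKO, against 8.25 and 7.97 in quadriceps control. Their changes were 0.42 (SE 0.13, adjusted p = 0.0145) and 0.34 (SE 0.11, adjusted p = 0.0154), in each case with 4 of 6 cKO arrays above all controls. These 2 genes lie head to head on chromosome 8 and their annotated spans overlap by 85 bases. With 75th-percentile centring Col4a2 gave 0.26 (adjusted p = 0.0519). In soleus their differences were 0.13 (interval -0.14 to 0.41) and 0.16 (interval -0.06 to 0.39), not called. Col4a3, a chain best known from the glomerulus of the kidney, averaged 5.25 in quadriceps cKO and 5.50 in quadriceps control, and 5.22 in soleus cKO and 5.47 in soleus control. Its changes of -0.26 (adjusted p = 0.0206) and -0.25 (adjusted p = 0.0406) were the smallest called in each muscle but for Col20a1. The quadriceps call of Col4a3 was lost without quadriceps control 4 (-0.19, adjusted p = 0.0625), quadriceps cKO 2 (-0.23, adjusted p = 0.0511) or quadriceps cKO 4 (-0.23, adjusted p = 0.0508), and without the 3 arrays of lowest weight (-0.18, adjusted p = 0.0817). The soleus call was lost with median centring (-0.21, adjusted p = 0.0618) and without soleus cKO 2 or 6 or soleus control 2, 3, 4 or 5 (-0.26 to -0.19, adjusted p = 0.0526 to 0.125). Its head-to-head neighbour Col4a4 was -0.15 in both muscles with no call. Col4a5 (0.19 and -0.01) and Col4a6 (-0.14 and -0.16) were not called. In quadriceps Col4a5 was called higher in 5 of 39 alternatives (0.19 to 0.24, limma adjusted p = 0.0192 to 0.04997). Col4a4 was called lower there in 3 (-0.23 to -0.18, limma adjusted p = 0.0237 to 0.0456).

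Both multiplexins, proteoglycan-type collagens that link basement membranes to the interstitium and give rise to endostatin-type fragments, were higher in quadriceps. Col15a1, prominent in the basement membrane zone of muscle fibres and capillaries, was 8.62, 8.77 and 8.99 in quadriceps cKO, against 8.02, 8.23 and 8.50 in quadriceps control, with no overlap (change 0.53, SE 0.13, adjusted p = 0.00168). Col18a1 averaged 6.41 ± 0.12 and 6.03 ± 0.18 there (change 0.38, adjusted p = 0.00410). Neither was called in soleus, where the differences were 0.29 (interval 0.03 to 0.55) and 0.12 (interval -0.09 to 0.33). Col15a1 was called there without soleus cKO 6 (0.40, adjusted p = 0.0158) or soleus control 5 (0.36, adjusted p = 0.0451), and with array weights (0.39, adjusted p = 0.0118). Of the 4 transmembrane collagens 1 was called in each muscle, where 40.0% of all genes were called in quadriceps and 23.1% in soleus. Col25a1, which in mice is needed for motor axons to enter muscle, averaged 5.46 ± 0.18 in quadriceps cKO and 5.06 ± 0.15 in quadriceps control (change 0.40, adjusted p = 0.00139), while its soleus difference of 0.18 was not called (0.26, adjusted p = 0.0343, without soleus control 1, and 0.25, adjusted p = 0.01295, with array weights). Col23a1 was 6.72, 6.91 and 7.11 in soleus cKO, against 6.04, 6.44 and 6.60 in soleus control, with no overlap (change 0.50, SE 0.10, adjusted p = 5.74e-04), and its quadriceps change of 0.19 (interval -0.02 to 0.40) was not called. The difference between its changes was not called either (-0.31, adjusted p = 0.164). Col13a1 and Col17a1, and the 3 genes outside these classes, were not called in either muscle. Col17a1 was called lower in quadriceps in 7 of 39 alternatives and Col26a1 lower in soleus in 6. Over the 22 genes without a call in either muscle the changes ran from -0.25 to 0.25 in quadriceps, with 95% intervals between -0.47 and 0.50, and from -0.23 to 0.09 in soleus, with intervals between -0.41 and 0.28.

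Whether a collagen changed unequally in the muscles was tested as the quadriceps change minus the soleus change. With the brightest probe set of each gene it was called for 2 of the 44 genes, both higher. Over all genes 7.39% were called higher and 4.89% lower (12.3% in all). The share of called genes that were higher was 60.2%, and 45.6% with arrays centred on their median. Col19a1 encodes a FACIT collagen made in embryonic muscle and brain. It was 5.38, 5.53 and 5.80 in quadriceps cKO, against 4.52, 4.76 and 5.09 in quadriceps control, and 4.39, 4.59 and 4.75 in soleus cKO, against 4.47, 4.72 and 5.01 in soleus control. All 6 quadriceps cKO arrays lay above the other 18 arrays, and the soleus groups overlapped. Its changes were 0.80 in quadriceps (SE 0.10, adjusted p = 2.47e-07) and -0.13 in soleus (interval -0.33 to 0.07), a difference of 0.93 (SE 0.14, adjusted p = 5.58e-05). Col9a1, which lies 4944 bases from Col19a1 on chromosome 1, was at -0.21 in quadriceps and not called. Col10a1 was 4.60, 4.90 and 5.07 in quadriceps cKO, against 3.90, 4.04 and 4.48 in quadriceps control, and 3.85, 4.18 and 4.29 in soleus cKO, against 3.86, 4.04 and 4.17 in soleus control. Again the quadriceps cKO arrays were apart from all others. The changes were 0.77 (SE 0.10, adjusted p = 9.85e-07) and 0.10 (interval -0.11 to 0.31), and their difference 0.67 (SE 0.14, adjusted p = 0.00283). Nt5dc1, whose span holds Col10a1, was at 0.18 in quadriceps and 0.01 in soleus with no call. Both differences were called in every alternative in which the gene was tested, at 0.77 or more for Col19a1 (adjusted p = 6.50e-06 to 2.73e-04) and 0.61 or more for Col10a1 (adjusted p = 1.46e-04 to 0.00908). Col10a1 was a dim gene and was not tested under the stricter filter at the 50th percentile. Outside quadriceps cKO all its values lay between the dim limits (3.51 to 3.72) and the array medians (4.74 to 4.94).

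**Figure D3:**
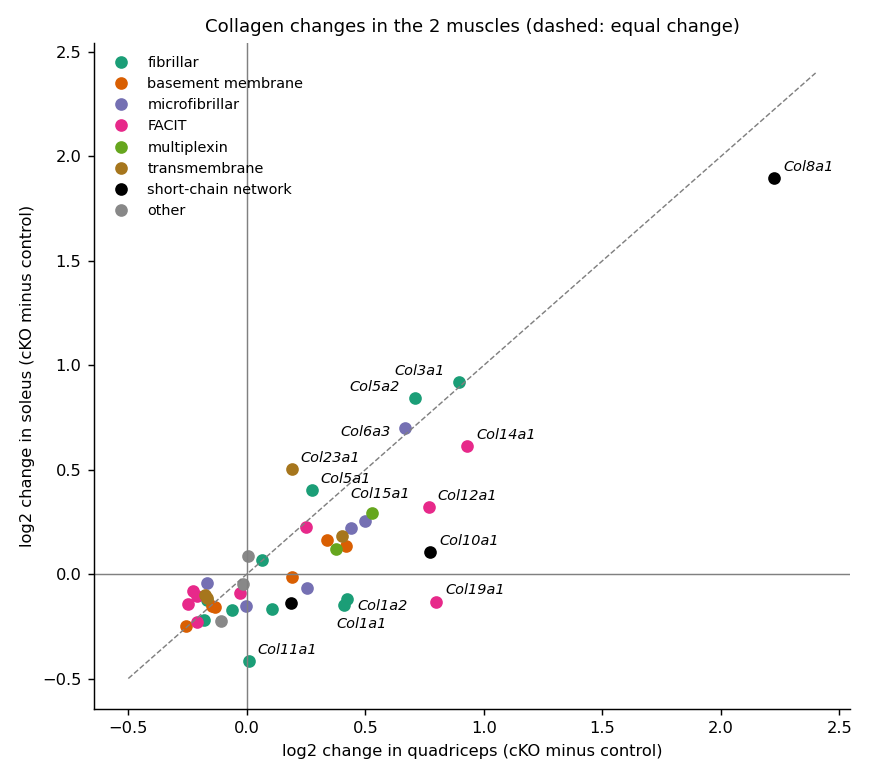
Log2 change in quadriceps (horizontal) against soleus (vertical) for the 44 collagens, cKO minus control in each, coloured by class; the dashed line marks equal change. Col3a1, Col5a2 and Col6a3 lie near the line, and Col19a1 and Col10a1 lie far to its right at 0.80 and 0.77 in quadriceps, against -0.13 and 0.10 in soleus.

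For the other collagens the difference was not called, and its interval is the measure of what could have been missed. Col3a1 differed by -0.02 (interval -0.50 to 0.46), Col6a3 by -0.03 (-0.40 to 0.33) and Col5a2 by -0.14 (-0.46 to 0.19). Type I collagen was on the border, with 0.56 for Col1a1 (0.13 to 0.99, adjusted p = 0.0810) and 0.54 for Col1a2 (0.12 to 0.97, adjusted p = 0.0830). Col12a1 gave 0.45 (0.10 to 0.79, adjusted p = 0.0788) and Col11a1 0.42 (0.13 to 0.72, adjusted p = 0.0548). The Col11a1 difference was called in 9 of 38 alternatives, among them without quadriceps cKO 6, soleus cKO 2 or 3, quadriceps control 3 or soleus control 1 (0.44 to 0.48, adjusted p = 0.0279 to 0.0460). When same-numbered quadriceps and soleus arrays of a genotype were treated as 1 animal, with the animal as a random term, 7 differences were called instead of 2: Col1a1 (adjusted p = 0.0355), Col1a2 (adjusted p = 0.0358), Col11a1 (adjusted p = 0.0191), Col12a1 (adjusted p = 0.0355) and Col24a1 joined Col19a1 and Col10a1. The labels give no animal identity, and for the arrays numbered cKO 4 they give different ages, 40 days in quadriceps and 41 days in soleus, so that pair is not 1 animal by the labels. With those arrays as separate animals the same 7 were called, with adjusted p of 0.0396 for Col1a1, 0.0395 for Col1a2, 0.0210 for Col11a1 and 0.0393 for Col12a1. These added calls rest on the pairing. Without quadriceps control 3, which was the highest array of its group for 23 collagens, 6 were called.

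The muscles also differed apart from the knockout. The quadriceps and soleus comparisons above share their arrays with these, so the values are given side by side and no agreement is drawn from them. Soleus was higher than quadriceps for 11 collagens and lower for 1 in control mice, where 15.2% of all genes were called higher and 18.3% lower (33.5% in all). In cKO mice soleus was higher for 7 and lower for 6, where 11.9% and 16.9% of all genes were (28.8% in all). With the animal as a random term the counts were 15 and 2 in control mice and 11 and 9 in cKO mice (10 and 9 with the arrays numbered cKO 4 as separate animals). They depend on scaling: with median centring 5 were higher and 3 lower in control mice, and 4 higher and 9 lower in cKO mice, and with 75th-percentile centring 15 higher and 1 lower, and 15 higher and 3 lower. The share of all called genes that were higher in soleus ran from 22.3% to 56.2% over these scalings in control mice (45.4% as deposited) and from 23.95% to 68.6% in cKO mice (41.3% as deposited). In control mice the median of all genes lay at 0.03 as deposited and at -0.07 with median centring. In control mice Col8a1 was higher in soleus by 0.71 (7.04 in soleus and 6.33 in quadriceps, adjusted p = 5.60e-05), with no overlap. Col11a1 was higher by 0.62 (7.13 and 6.51, adjusted p = 3.78e-05), also with no overlap, Col12a1 by 0.57 (7.97 and 7.40, adjusted p = 4.74e-04) and Col1a1 by 0.49 (10.95 and 10.46, adjusted p = 0.0119). Col6a3 was lower by 0.37 (7.85 in soleus and 8.22 in quadriceps, adjusted p = 0.0250). The Col6a3 call was lost with quantile normalization (-0.27, adjusted p = 0.09499), without quadriceps control 3 (-0.27, adjusted p = 0.0846) or soleus control 2 or 4 (-0.31 and -0.32, adjusted p = 0.0686 and 0.0673), and without the 3 arrays of lowest weight (-0.39, adjusted p = 0.0516). The Col1a1 call was lost with median centring (0.38, adjusted p = 0.0538), with array weights (0.33, adjusted p = 0.0766) and without those 3 arrays (0.30, adjusted p = 0.143). Separation with no overlap was seen for 3 collagens upward in control mice (Col8a1, Col11a1 and Col26a1), and none downward, where 3.94% and 7.73% of all genes showed it, and for 2 upward and 3 downward in cKO mice, where 5.33% and 10.6% did. In cKO mice the largest differences with the brightest probe sets were those of Col19a1 (-0.97, adjusted p = 3.20e-08), Col10a1 (-0.72, adjusted p = 8.65e-06) and Col14a1 (-0.61, adjusted p = 0.00721), all lower in soleus, and Col23a1 (0.52, adjusted p = 5.78e-04), higher in soleus. The dimmer probe sets of Col6a5 and Col6a6 were also called lower in soleus there, by -1.25 and -0.96. The soleus mean of that Col6a5 probe set lay at the dim limit.

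Collagen chains are hydroxylated and folded in the endoplasmic reticulum before they leave the cell. Of 20 such genes tested 7 were higher and 2 lower in quadriceps, and 6 higher and 2 lower in soleus, with median changes of 0.20 and 0.15. Over all genes tested 22.3% were called higher and 17.7% lower in quadriceps, and 13.2% and 9.94% in soleus. The medians of all genes were -0.01 and -0.02. These shares and medians stand beside the counts of every list of such partner genes below. P3h2, a prolyl 3-hydroxylase of type IV collagen, averaged 9.49 in quadriceps cKO and 7.08 in quadriceps control (change 2.41, SE 0.25, adjusted p = 2.32e-08), and its change was larger in quadriceps than in soleus by 1.68 (adjusted p = 0.00251). In control mice the mean of P3h2 was already higher in soleus than in quadriceps by 2.73, more than the quadriceps change. The soleus control mean thus lay above the quadriceps cKO mean. Plod2, the lysyl hydroxylase of the chain ends that become cross-links, changed by 1.16 (adjusted p = 1.10e-06) and 0.79 (adjusted p = 3.35e-04). P4ha2, a catalytic chain of prolyl 4-hydroxylase, fell by 0.49 in quadriceps (adjusted p = 4.18e-05), and that change differed from the soleus one by -0.47 (adjusted p = 0.00955). P3h1 was higher in soleus by 0.46 (adjusted p = 6.23e-04), while Tmem38b, a channel of the endoplasmic reticulum needed for collagen folding, fell by 0.44 there (adjusted p = 0.00176).

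Outside the cell the propeptides are cut off and the fibrils cross-linked. Of 11 genes of these steps 4 were higher and 3 lower in quadriceps, and 4 higher and 2 lower in soleus, with medians of 0.23 and -0.14. Lox, the lysyl oxidase, averaged 9.07 in quadriceps cKO and 8.14 in quadriceps control (change 0.93, SE 0.19, adjusted p = 2.77e-04), and 9.27 in soleus cKO and 7.93 in soleus control (change 1.34, SE 0.19, adjusted p = 4.96e-06). Loxl1 changed by 0.89 (adjusted p = 6.94e-07) and 1.03 (adjusted p = 1.46e-07). Pcolce, an enhancer of the procollagen C-proteinase, was higher in quadriceps by 0.51 (adjusted p = 0.00117), and Bmp1, that proteinase, in soleus by 0.34 (adjusted p = 0.00261). Tll1, a related protease, had a change that differed between the muscles by 0.60 (adjusted p = 0.0488).

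Proteoglycans and glycoproteins that bind fibrils numbered 16, of which 9 were higher and 1 lower in quadriceps, and 6 higher and 3 lower in soleus, with medians of 0.34 and 0.05. Postn (periostin), which scaffolds collagen cross-linking, averaged 10.44 in quadriceps cKO and 8.16 in quadriceps control (change 2.28, SE 0.13, adjusted p = 1.97e-13), and 11.22 in soleus cKO and 9.48 in soleus control (change 1.74, SE 0.13, adjusted p = 1.21e-10). The difference of 0.54 was called (adjusted p = 0.0452). Aspn (asporin) changed by 1.12 (adjusted p = 6.18e-07) and 1.20 (adjusted p = 4.50e-07). Bgn (biglycan) was higher in quadriceps by 1.06 (adjusted p = 1.79e-07), and Lum (lumican) in soleus by 0.90 (adjusted p = 3.88e-06). The change of Podn (podocan) was larger in quadriceps than in soleus by 0.53 (adjusted p = 0.0438).

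Receptors and uptake genes numbered 9, with 4 higher in quadriceps and 3 higher and 1 lower in soleus (medians 0.29 and 0.10). Itgb1, the beta chain shared by collagen-binding integrins, changed by 0.70 (adjusted p = 6.96e-08) and 0.46 (adjusted p = 6.98e-05), and Mrc2, which internalises collagen, by 0.63 (adjusted p = 1.49e-05) and 0.48 (adjusted p = 7.04e-04). Ddr1, a collagen receptor kinase, was higher in quadriceps by 0.35 (adjusted p = 0.00587). Itga1, a collagen-binding alpha chain, fell by 0.47 in soleus (adjusted p = 0.0402), and the changes of Itga1 and Ddr2 differed between the muscles by 0.79 (adjusted p = 0.0261) and 0.52 (adjusted p = 0.00939). Genes of collagen breakdown and its inhibitors numbered 11, with 5 higher and 1 lower in quadriceps and 3 higher in soleus (medians 0.41 and 0.12). Mmp2, a gelatinase, changed by 0.84 (adjusted p = 2.20e-08) and 0.58 (adjusted p = 1.41e-05), and Fap, a fibroblast protease, by 0.61 (adjusted p = 8.31e-05) and 0.33 (adjusted p = 0.0281). Timp1, an inhibitor of these enzymes, was higher in quadriceps by 1.60 (SE 0.30, adjusted p = 1.33e-04), and Mmp14 in soleus by 0.38 (adjusted p = 0.0292). The changes of Timp3 differed between the muscles by 0.81 (adjusted p = 0.0230).

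TGF-beta is the best known inducer of fibroblast collagen synthesis. Of 15 genes for its ligands, receptors, latency proteins and readouts 12 were higher and 1 lower in quadriceps, and 7 higher and 2 lower in soleus, with medians of 0.51 and 0.24. Ccn2, a secreted target gene of the pathway, averaged 9.59 in quadriceps cKO and 8.11 in quadriceps control (change 1.48, SE 0.15, adjusted p = 1.46e-08), with a change larger than in soleus by 0.82 (adjusted p = 0.0112). Ltbp1, which holds latent TGF-beta in the matrix, changed by 1.03 in quadriceps (adjusted p = 4.46e-08), more than in soleus by 0.91 (adjusted p = 4.14e-04), and the ligand Tgfb3 by 0.67 (adjusted p = 4.09e-08). In soleus Ltbp2 rose by 0.83 (adjusted p = 2.11e-06) and Ltbp3 by 0.41 (adjusted p = 2.19e-04), and Smad3, a signal transducer, fell by 0.84 (adjusted p = 1.08e-04). Skil, a repressor of Smad proteins, had changes that differed by 0.58 (adjusted p = 0.0295). The basement membrane partners of type IV collagen had 8 of 11 genes higher in quadriceps and 3 of 11 in soleus, with none lower and medians of 0.41 and 0.19. Nid1 (nidogen) changed by 0.61 (adjusted p = 2.40e-04) and 0.35 (adjusted p = 0.0339), Hspg2 (perlecan) by 0.52 in quadriceps (adjusted p = 2.87e-04) and Lama2, the laminin chain of muscle fibres, by 0.49 (adjusted p = 3.45e-04). In soleus Lamc1 rose by 0.71 (adjusted p = 1.63e-05) and Lamb1 by 0.57 (adjusted p = 6.30e-04). No difference between the muscles was called for this list by limma at an adjusted p under 0.05.

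**Figure D4:**
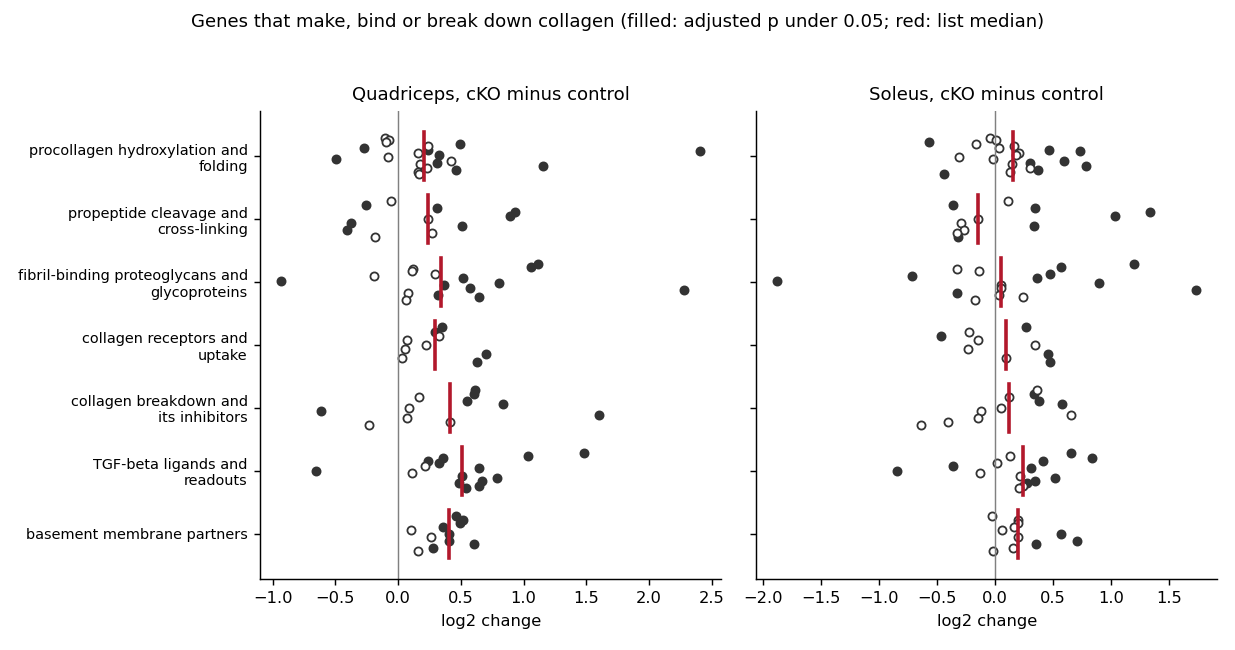
Log2 change (cKO minus control) of each gene in 7 lists of genes that make, bind or break down collagen, in quadriceps (left) and soleus (right); filled points have an adjusted p under 0.05 and red lines mark list medians. The medians run from 0.20 to 0.51 in quadriceps and from -0.14 to 0.24 in soleus.

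Markers of several other cell types moved in the same comparisons, and their part in the collagen changes was not tested. No marker of any list was at 0 on an array. The counts of this and the next paragraph stand beside the shares over all genes tested. These were 22.3% higher and 17.7% lower in quadriceps, and 13.2% and 9.94% in soleus. Of 9 fibro-adipogenic progenitor genes 5 were higher and 1 lower in quadriceps, and 4 higher in soleus. The 1 lower was Pcolce2 (-0.41). Their summed linear intensity ran from 5007 to 5620 in quadriceps cKO, against 3629 to 5229 in quadriceps control, and from 4484 to 5206 in soleus cKO, against 3507 to 4116 in soleus control. The quadriceps control array at 5229 was control 3, which was also the highest of its group for 23 collagens. Pdgfra, their defining receptor, changed by 0.60 in quadriceps (adjusted p = 1.44e-04), Pi16 by 0.58 and 1.08 (adjusted p = 5.54e-04 and 2.44e-07), and Mfap5 by 1.39 and 1.60 (adjusted p = 2.36e-08 and 5.26e-09). Macrophage genes were higher for 8 of 10 in each muscle, with sums of 1495 to 1782 in quadriceps cKO, against 788 to 1296 in quadriceps control, and 977 to 1391 in soleus cKO, against 702 to 905 in soleus control. Their sums did not overlap between genotypes in either muscle. Adipocyte genes were higher for 4 of 6 in quadriceps, where the sums ran from 2421 to 6234 in cKO, against 1463 to 3599 in control, and none was called in soleus. The highest cKO sum was that of quadriceps cKO 2 alone, with the next at 3140. The highest control sum was that of quadriceps control 3 alone, with the next at 2000.

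Of 9 tendon cell genes 1 was higher in soleus (Thbs4, 0.94, adjusted p = 8.76e-07) and 6 were lower, among them Kera (-1.88, adjusted p = 8.45e-06) and Mkx (-0.67, adjusted p = 5.17e-05). The median change of the 9 genes in soleus was -0.67, with 8 negative. For 5 of them every cKO array lay below every control array, where 4.96% of all genes were so separated. Their soleus sums, which include the rising Thbs4, were 3333 to 4643 in cKO, against 3504 to 4560 in control, and overlapped widely. These values move beside the lower Col11a1 of soleus, and their part in it was not tested. In quadriceps 1 tendon gene was higher and 1 lower. Endothelial genes were lower for 6 of 10 in soleus (2060 to 2409 in cKO, against 2621 to 4099 in control), led by Kdr (-1.17, adjusted p = 6.70e-05), and none was called in quadriceps. Pericyte and smooth muscle genes had 1 higher and 4 lower of 8 in soleus (2482 to 2786 in cKO, against 3035 to 3942 in control) and 2 higher in quadriceps. Cartilage and bone genes, given because Col10a1 and the type IX genes are best known from cartilage, had 1 higher and 1 lower of 6 tested in quadriceps, Sox9 (0.55, adjusted p = 0.0100) and Cnmd (-0.28, adjusted p = 0.0234). Matn1 and Hapln1, defining cartilage matrix genes, were under the dim limit on every array, and the sums were 173 to 187 in quadriceps cKO, against 136 to 189 in quadriceps control. In soleus Matn3 was lower (-0.76, adjusted p = 1.09e-06). Schwann cell genes had 1 higher and 1 lower of 5 in quadriceps and none called in soleus. Fibre type genes moved too: all 6 slow genes were higher in quadriceps (12674 to 18347 in cKO, against 2459 to 7230 in control) and 3 of 6 fast genes lower. In soleus 2 slow genes were higher and 1 lower, and all 6 fast genes were lower (6311 to 8748 in cKO, against 9785 to 19338 in control).

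**Figure D5:**
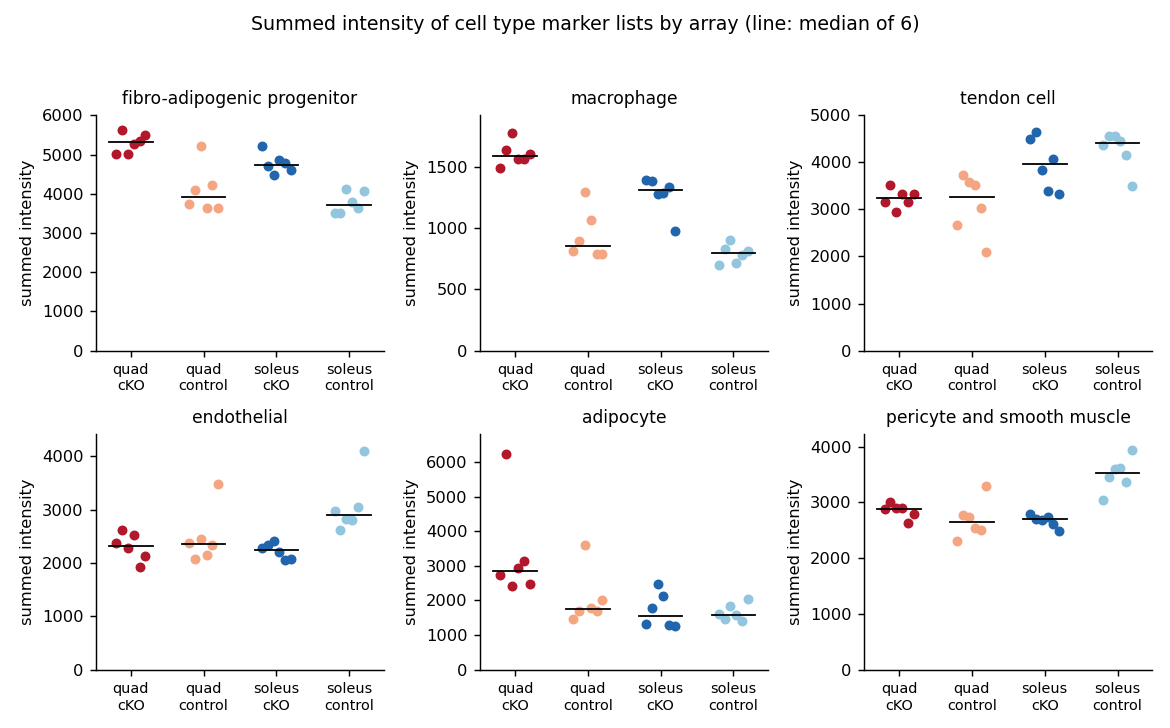
Summed linear intensity of 6 marker lists on each array, by muscle and genotype, with the line at the median of 6 arrays. Macrophage sums are higher in cKO than in control without overlap in both muscles, and endothelial sums are lower in soleus cKO (2060 to 2409) than in soleus control (2621 to 4099).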

How the data were processed

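The authors deposited normalized probe set intensities on a linear scale, made with Affymetrix Expression Console and RMA on mm10 per the submitters' processing notes; tool versions, slides and scan dates are not stated in any source at hand. RMA corrects background, normalizes quantiles and summarises probes, so small differences of dim probe sets are compressed. Intensities were turned to log2. Of 35557 probe sets 21789 had 1 symbol, 1621 several and 12147 none; symbols were updated through Entrez numbers to RefSeq GRCm38.p6 (21698 matched), and the brightest probe set stood for a gene. Genes above the array's 30th percentile on at least 6 arrays were kept, 15999 of 19938.

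One limma model of 4 group means (R 4.3.3, limma 3.58.1) was fitted to all 24 arrays with 20 residual degrees of freedom (prior 6.52), Benjamini-Hochberg over 15999 genes, two-sided, called under 0.05. Its p-values set a difference against the spread between arrays within groups, pooled over the 4 groups. They treat the 24 arrays as independent, although same-numbered arrays of quadriceps and soleus correlated. Any array pair of a group correlated at r between 0.963 and 0.993, and no pair was identical. The code was tested on simulated data with independent arrays and changes in quadriceps cKO only. That test covered the changes within a muscle, and not the between-muscle comparisons or the block fits.

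The 44 members, their classes, the 7 partner lists, the 11 marker lists and the naming rule were chosen with earlier results of these data known, and no set test was made. Per-array values are given for members called with a change of at least 0.5, and up to 3 called genes of a list are named per comparison; fewer are named where a marker list has little bearing. Some genes stand in more than 1 list (Kera, Fmod, Comp, Dpt and Pcolce2). The labels number the arrays 1 to 6 in every group. For same-numbered quadriceps and soleus arrays the deviations from their group means were correlated. The correlations were 0.22 to 0.45 in cKO mice and 0.16 to 0.31 in control mice, all 6 of 6 pairs over 0.1. In each genotype all 6 quadriceps arrays correlated best with the soleus array of their own number. Such arrays were therefore treated as pairs in the animal-block alternative. Same-numbered arrays of different genotype correlated in part too, at -0.15 to 0.17 in quadriceps and 0.04 to 0.32 in soleus. There 3 of 6 cKO arrays in quadriceps and 4 of 6 in soleus correlated best with the control array of their own number. The match by number was thus complete only within a genotype, and correlations alone do not show that a pair came from 1 animal. The labels name no animals, and their ages differ for the pair numbered cKO 4 (40 days in quadriceps, 41 in soleus) and match for the other 11, so the block was also fitted with that pair as 2 animals.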

Additional observations from a re-analysis of the deposited data

Results flagged for a closer look

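An array was marked as far from its group where its gap to the nearest other array was a large part of the group's range (Dixon's criterion at the 95% level). Chance marks about 1 in 20 groups, and 15 of the 176 combinations of a collagen and a group were marked. The values are log2 intensities.

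Quadriceps control 3 was far above its group for Col6a3 (8.70, nearest 8.20), Col14a1 (7.69, nearest 7.10), Col5a3 (7.14, nearest 6.85) and Col8a1 (6.55, nearest 6.33). It also had the highest fibro-adipogenic progenitor, macrophage and adipocyte sums of its group. Quadriceps control 6 was far below for Col9a3 (5.99, nearest 6.35) and Col6a5 (5.37, nearest 5.70), and quadriceps control 4 far above for Col4a3 (5.85, nearest 5.50). Quadriceps cKO 6 was far below for Col11a1 (6.22, nearest 6.51) and Col14a1 (7.60), and quadriceps cKO 4 for Col9a1 (4.95, nearest 5.27) and Col22a1 (5.70, nearest 5.93). Soleus cKO 6 was far below for Col6a2 (8.10, nearest 8.52) and Col14a1 (6.56, nearest 7.42). Soleus control 1 was far above for Col26a1 (6.73, nearest 6.42) and soleus control 3 for Col4a3 (5.76, nearest 5.46).

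The cKO changes of 2 collagens differed between the muscles by the interaction test (limma, quadriceps change minus soleus change): Col19a1 by 0.93 (adjusted p = 5.58e-05) and Col10a1 by 0.67 (adjusted p = 0.00283), each with all 6 quadriceps cKO arrays above all 6 quadriceps control arrays.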

How the results depend on the processing

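No collagen call in a knockout comparison changed direction under any alternative run. Among 5095 recomputed values of all 44 collagens in the 3 knockout comparisons 4908 kept their side of the threshold, 66 lost a call and 121 gained one. In the 2 muscle comparisons 3148 of 3338 kept it, 75 lost and 114 gained a call, and Col6a6 in control mice turned from 0.12 (not called) to -0.57 with its dimmer probe set. Counts of lower and of between-muscle calls moved most. In quadriceps the number lower was 1, and was 5 with median centring, 8 with 75th-percentile centring, 7 with quantile normalization, 6 with array weights or without the 3 arrays of lowest weight, and 2 with the replicate number as a fixed block or with the animal block when the arrays numbered cKO 4 were 2 animals. In soleus the number lower was 2, and was 1, 4, 5, 4 and 4 under the same first 5 settings, 5 with the number block and 4 with each muscle fitted alone. The number of larger changes in quadriceps than soleus was 2, and was 4 with quantile normalization and 7 with each of the 3 replicate blocks. For soleus over quadriceps in control mice the 11 higher were 5 with median centring and 6 without the 3 low-weight arrays, and the 1 lower was 3 with median centring and 2 with array weights, either animal block or the dimmer probe sets of Col6a5 and Col6a6. In cKO mice the 7 higher were 4 (median), 15 (75th percentile), 16 (weights), 12 (number block), 11 (animal block) and 12 (3 arrays out), and the 6 lower were 3 with the 75th percentile. Leaving out 1 array at a time gave 16 to 20 higher and 0 to 9 lower in quadriceps, 7 to 12 and 1 to 4 in soleus, 2 to 6 and 0 for the difference, 8 to 12 and 0 to 2 between muscles in control mice, and 4 to 13 and 4 to 7 in cKO mice. The extremes came without quadriceps control 6 (9 lower in quadriceps), quadriceps cKO 2 or 4 (0 lower), quadriceps control 3 (6 differences), quadriceps cKO 3 (13 higher) and soleus cKO 1 (4 higher). The 3 arrays of lowest weight (quadriceps controls 4 and 6, soleus control 1), the dimmer probe sets and the split of cKO 4 were chosen after seeing the data. The numbers 1 to 6 paired cKO with control arrays only in part. In quadriceps 3 of 6 such pairs correlated over 0.1, and in soleus 4 of 6. As many cKO arrays, 3 and 4, correlated best with the control array of their own number. The animal block changed no knockout call within a muscle, except that Col22a1 was called lower in both with cKO 4 split. The cause of these moves was not tested.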
